A study of Rattus norvegicus with 6 samples.

Results

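Ion channel genes were taken from the sequencing table by gene symbol, as all listed genes beginning with any of 21 prefixes that name ion channel or connexin families. These prefixes cover voltage-gated potassium, sodium and calcium channels, pacemaker channels, chloride channels, transient receptor potential channels, ATP-gated and glutamate-gated channels, mechanically gated channels and gap junction connexins. The rule found 23 genes among the 1756 genes listed, spread over 12 of the prefixes. The other 9 prefixes, among them those of the chloride channel families Clcn and Clic, the Trpv family, the anoctamins and the ryanodine receptors, had no listed gene. All 23 are annotated as protein coding.

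Neonatal rat ventricular cardiomyocytes (NRVCs), which are heart muscle cells isolated from the ventricles of Harlan Sprague–Dawley rats at an age of 2 to 3 days, were cultured with a cocktail of antiretroviral drugs (ARVs) at 5 µM for 24 h. The cocktail held 4 drugs, the HIV protease inhibitors Ritonavir and Atazanavir and the nucleoside reverse transcriptase inhibitors Abacavir and Lamivudine. Control NRVCs received DMSO, the solvent, for the same 24 h. The labels name no genetic change in either group, and each group gave 3 RNA-seq libraries, with nothing in the labels on whether replicates came from separate cell preparations. The p-values given here therefore measure the spread between these libraries. NRVCs are a primary culture of immature cells, in which fibroblasts, smooth muscle cells and leukocytes can remain beside the myocytes. Cardiomyocyte markers were high in the table, with 10 of 23 markers listed and none at 0 in any library. With ARVs 5 were higher and 5 lower, against 39.9% and 60.1% of all genes tested. Their summed normalized counts were 708729 to 770899 with DMSO and 641012 to 691575 with ARVs. These sums rest mostly on the few markers with the highest counts, which moved in both directions. The median log2 fold change of the 10 markers, ARVs over DMSO, was 0.02, so the sums do not show a fall shared by all of them.

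Ion channels are membrane proteins that open a pore for sodium, potassium, calcium or chloride ions, and the order in which they open shapes the action potential of a heart cell. Sodium channels carry the upstroke, calcium channels the plateau and the trigger for contraction, and several potassium channels bring the membrane back to rest. Pacemaker channels and T-type calcium channels drive the slow depolarization of nodal cells and are typical of the fetal and neonatal ventricle, where they decline with maturation. Auxiliary subunits carry no current themselves but set how fast, how long and at which voltage a pore-forming subunit opens, and connexins pass the current on from cell to cell.

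Every gene of the table had passed the authors' own comparison of ARVs with DMSO on these same 6 libraries, so membership of the table was decided by the contrast reported here. Raw counts of the genes listed were refitted with edgeR's quasi-likelihood test, with library sizes that follow the size factors of the authors, and p-values were adjusted after Benjamini and Hochberg over 1751 genes left by a filter on low counts. Adjusted p-values are printed to give the spread behind each change and are no independent evidence of it. Values per library are normalized counts, that is, raw counts divided by the authors' size factor. FPKM, the authors' count scaled to transcript length and library total, is used where genes are compared with each other. Log2 fold changes are of ARVs over DMSO and are followed by their standard error (SE).

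Library totals worked out from FPKM, counts and gene lengths ran from 17347680 to 22126119, and 24.96% to 26.6% of each total fell on listed genes. DMSO replicate 2 stood apart from the other controls. The chi-square per degree of freedom over listed genes was 29.3 between DMSO replicates 1 and 2 and 32.0 between replicates 2 and 3, against 5.54 between replicates 1 and 3 and 4.84 to 6.44 between libraries with ARVs. Results are therefore given with and without DMSO replicate 2. The 4 libraries of a sequencing lane are not identified in the labels, so lanes were not compared.

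All 23 ion channel genes passed the test, 9 higher and 14 lower with ARVs, and 100% of the listed genes tested passed it, so the number of calls says nothing about channels. The shares of 39.1% higher and 60.9% lower were close to the 39.9% and 60.1% of all listed genes. Under TMM scaling computed from the listed genes, which assumes that most of them did not change, 9 were higher, 12 were lower, and Kcnj2 and Gria3 did not pass. Of all tested genes 90.3% passed under TMM, 39.9% higher and 50.4% lower. With median-ratio factors computed from them, which moved the median log2 fold change of all genes by 0.20, 9 were higher, 9 lower and 5 did not pass. The background then was 70.5% passing, 30.6% being lower, and the higher share among all genes that passed went from 39.9% to 56.6%.

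The size of the changes was larger than in the table as a whole. The median absolute log2 fold change was 0.59 for the channel genes and 0.39 for all genes tested. A change of more than 2-fold was found for 6 of the 23, 1 higher and 5 lower, or 26.1%, against 164 listed genes or 9.37%. Channel genes were also less abundant, with a median over genes of 358 normalized counts against 899 for all listed genes. Genes with fewer counts or a wider spread between replicates need a larger change to be called. The part of abundance and spread in the difference in size was not tested.

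All 5 auxiliary subunit genes, Scn4b, Kcne1, Kcne4, Kcnmb1 and Kcnab3, were lower, in a table where 60.1% of all genes were lower, with a median log2 fold change of -1.12. The 18 genes of pore-forming subunits and connexins were 9 higher and 9 lower, with a median of 0.08. Kcng2, an electrically silent subunit, was counted among these 18 and was higher. Placed with the auxiliary subunits, it would have been the only one of them that was higher. The difference between these small groups was not tested. Among the 8 potassium channel genes, Kcng2 was higher and the other 7 were lower by the authors' size factors, of which Kcnj2 did not pass with TMM and Kcnj2 and Kcnh2 did not pass with median-ratio factors.

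The groups did not overlap in normalized counts for 22 of the 23 genes, against 95.9% of all listed genes, of which 39.2% had all libraries with ARVs higher and 56.7% had them lower. Under TMM this held for 20 channel genes, against 88.5% of all listed genes.

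**Figure D1:**
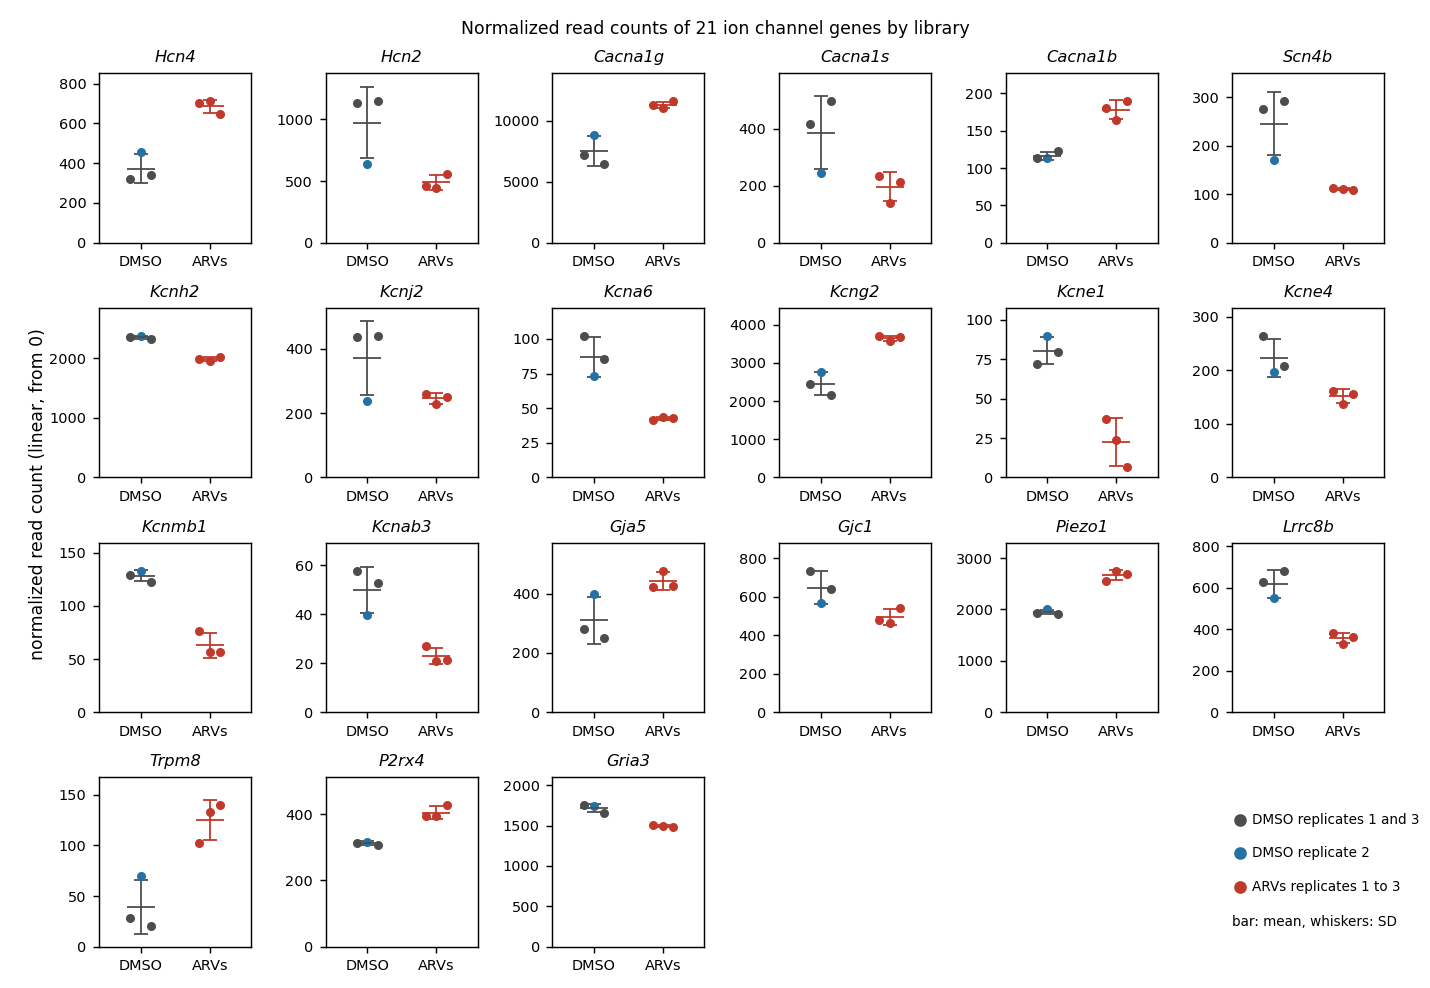
Normalized read counts (linear axes from 0) of 21 ion channel genes in each library, with DMSO replicate 2 in blue, the other DMSO libraries in grey and ARVs libraries in red. Bars are means and whiskers SDs of 3 libraries, and the groups overlap for Kcnj2 alone.

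**Figure D2:**
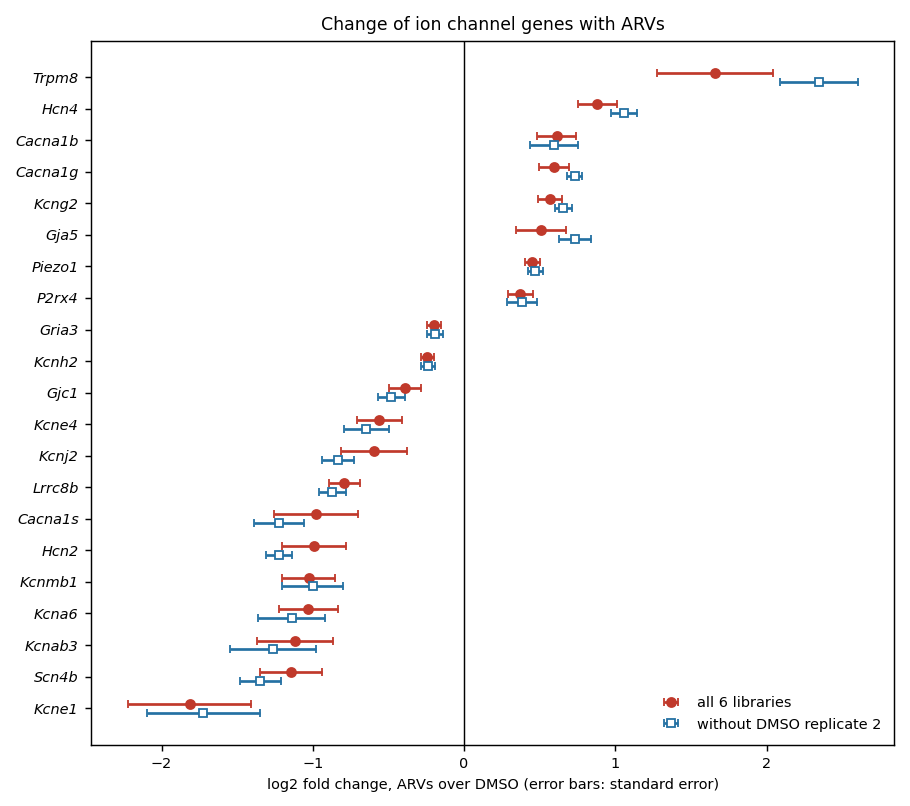
Log2 fold change of ARVs over DMSO with its standard error for 21 ion channel genes, from all 6 libraries (red circles) and without DMSO replicate 2 (blue squares). Values from all 6 libraries run from -1.82 for Kcne1 to 1.66 for Trpm8.

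Upstream sequences are shown for genes on which the description turns and for which the RefSeq promoter table of the GRCr8 assembly had an entry, 250 bases before to 50 bases after the annotated start. Entries were found for 15 of the 23 genes. Hcn4, Cacna1g, Kcnh2, Gjc1, Piezo1 and Gria3 are named only. The 6 printed are those of the largest rise (Trpm8), the largest fall (Kcne1), the gene with overlapping groups (Kcnj2), the ATP-gated channel (P2rx4), and Hcn2 and Gja5, each from a pair of related genes that moved in opposite directions. They were chosen after their values were seen. Capitals mark matches, on either strand, to the motifs listed after the sequences.
Trpm8, chr9:96351433-96351732 of GRCr8, plus strand: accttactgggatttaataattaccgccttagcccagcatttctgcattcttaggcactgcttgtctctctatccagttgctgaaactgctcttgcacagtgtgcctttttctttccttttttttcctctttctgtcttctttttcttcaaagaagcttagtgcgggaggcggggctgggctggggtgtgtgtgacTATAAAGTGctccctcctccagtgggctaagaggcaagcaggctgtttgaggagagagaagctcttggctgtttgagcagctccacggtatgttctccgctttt
Kcne1, chr11:45076984-45077283 of GRCr8, minus strand: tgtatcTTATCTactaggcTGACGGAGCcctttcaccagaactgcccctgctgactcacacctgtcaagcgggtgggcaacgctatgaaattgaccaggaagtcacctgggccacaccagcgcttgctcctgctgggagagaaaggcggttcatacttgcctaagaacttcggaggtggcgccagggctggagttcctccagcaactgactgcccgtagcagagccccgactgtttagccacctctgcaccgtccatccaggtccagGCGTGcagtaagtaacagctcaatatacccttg
Kcnj2, chr10:96559975-96560274 of GRCr8, plus strand: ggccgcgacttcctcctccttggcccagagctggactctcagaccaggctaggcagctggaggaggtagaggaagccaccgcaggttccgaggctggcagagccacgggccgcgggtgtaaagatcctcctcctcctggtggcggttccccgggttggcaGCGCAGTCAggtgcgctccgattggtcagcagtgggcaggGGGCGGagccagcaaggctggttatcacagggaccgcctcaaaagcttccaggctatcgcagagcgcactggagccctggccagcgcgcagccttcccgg
P2rx4, chr12:39523040-39523339 of GRCr8, minus strand: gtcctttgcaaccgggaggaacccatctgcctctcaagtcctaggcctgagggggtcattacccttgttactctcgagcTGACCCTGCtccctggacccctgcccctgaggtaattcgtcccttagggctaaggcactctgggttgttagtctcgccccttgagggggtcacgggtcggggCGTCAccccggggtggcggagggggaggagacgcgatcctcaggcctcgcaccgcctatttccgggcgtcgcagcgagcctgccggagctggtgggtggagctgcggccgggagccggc
Hcn2, chr7:10639408-10639707 of GRCr8, minus strand: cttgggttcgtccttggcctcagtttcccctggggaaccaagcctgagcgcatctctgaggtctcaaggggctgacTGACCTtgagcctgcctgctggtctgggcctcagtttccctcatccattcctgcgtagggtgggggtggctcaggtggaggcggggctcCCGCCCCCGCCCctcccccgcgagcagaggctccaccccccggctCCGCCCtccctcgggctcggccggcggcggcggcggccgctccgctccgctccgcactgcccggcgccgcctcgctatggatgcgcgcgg
Gja5, chr2:187290977-187291276 of GRCr8, plus strand: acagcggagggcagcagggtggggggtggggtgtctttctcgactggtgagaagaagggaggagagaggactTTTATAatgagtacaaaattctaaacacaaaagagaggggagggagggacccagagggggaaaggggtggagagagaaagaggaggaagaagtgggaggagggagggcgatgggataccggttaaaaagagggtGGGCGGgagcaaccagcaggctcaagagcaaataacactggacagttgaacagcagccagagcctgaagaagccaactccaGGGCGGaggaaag

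The GC content of the 15 sequences had a median of 60.3% and ran from 43.0% for Kcna6 to 78.3% for Lrrc8b, against a median of 51.7% over all 33469 promoters of the table. A GC box (GGGCGG), the binding letters of SP family factors, was found in 8 of the 15 and in 33.1% of all promoters. Hcn2 held 3 GC boxes, of which a pair lie end to end, and Gja5 held 2. A TATA box (TATAAA) was found in Gja5, Trpm8 and Cacna1s, and in 14.2% of all promoters. In Trpm8 it overlaps a match to the NKX2-5 letters (TNAAGTG), which were also found in Kcna6 and Kcnab3 and in 11.5% of all promoters. The antioxidant response element core (TGACNNNGC) was found in Kcne1, Kcne4, Kcnj2, Lrrc8b and P2rx4, and in 12.1% of all promoters. P2rx4 was higher and the other 4 were lower with ARVs. The cAMP response element core (TGACG), found in 6 of the 15 and 21.2% of all promoters, overlaps the antioxidant core in Kcne1, Kcne4 and Lrrc8b and lies apart from it in P2rx4. The aryl hydrocarbon receptor core (GCGTG) was found in Cacna1b, Kcnab3, Kcne1 and Kcng2, which moved in both directions, and in 29.7% of all promoters. A GATA site (AGATAA) was found in Kcne1 and in 11.6% of all promoters, and the nuclear receptor core (AGGTCA) in Hcn2 and in 16.2%. The MEF2 letters (CTA and TAG with 4 bases of any kind between them) were found in none of the 15 and in 3.84% of all promoters. These matches describe the letters of the window, and binding was not measured.

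The pacemaker channel genes Hcn4 and Hcn2 moved in opposite directions. Both encode channels that open on hyperpolarization and carry the funny current, and Hcn4 is the main form of the adult sinoatrial node. Hcn4 (ENSRNOG00000009450, chr8:63600663-63639654, plus strand) was counted at 321, 457 and 338 in DMSO replicates 1, 2 and 3, after normalization, and at 699.8, 709.7 and 648 in the ARVs replicates. Its mean rose from 372 ± 74.0 (SD, n = 3) to 686 ± 33.3, or 1.84-fold. The 2 groups did not overlap, and the control nearest to ARVs was DMSO replicate 2. The log2 fold change was 0.88 (SE 0.13, adjusted p = 0.000663), and 1.06 (SE 0.09) without DMSO replicate 2. Hcn2 (ENSRNOG00000008831, chr7:12851739-12874215, minus strand), whose upstream sequence is among those shown, gave 1135, 639 and 1145 normalized counts with DMSO and 463, 446 and 560.1 with ARVs. Its mean fell by 49.7%, from 973 ± 289 to 489.8 ± 61.5. DMSO replicate 2 lay close above the highest library with ARVs, far from the other controls. On the log2 scale the change was -0.99 (SE 0.21, adjusted p = 0.00306), and -1.22 (SE 0.09) without that library.

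Of the calcium channel genes, Cacna1g and Cacna1b rose and Cacna1s fell. Cacna1g, the pore-forming subunit of a T-type channel that opens at negative voltages, was the most abundant of the 23 listed channel genes by count (ENSRNOG00000060528, chr10:82129506-82197848, minus strand). It gave 7153, 8854 and 6468 normalized counts with DMSO and 11304, 11069 and 11570.5 with ARVs. The libraries with ARVs were close together, at 11314 ± 251, while the controls spread over 7491 ± 1229. On the log2 scale it was a change of 0.59 (SE 0.10, adjusted p = 0.00134), and 0.73 (SE 0.05) without DMSO replicate 2. Cacna1s, the L-type pore-forming subunit that acts as the voltage sensor of skeletal muscle, lies on chromosome 13 (ENSRNOG00000046231, chr13:52889737-52964155, plus strand). Its normalized counts were 416, 246 and 496 with DMSO and 235, 139 and 215 with ARVs, so the lowest control was just above the highest treated library. Scaled by TMM, those libraries overlapped. The mean of Cacna1s fell by 49.3%, with a log2 fold change of -0.98 (SE 0.27, adjusted p = 0.00807), and -1.22 (SE 0.16) without DMSO replicate 2. Listed skeletal muscle markers moved with it: 3 of 21 were in the table, Casq1, Myl1 and Myh1, all lower, against 60.1% of all genes tested. Their summed normalized count was 13005 to 14245 with DMSO and 6273 to 7183 with ARVs and was mostly that of Casq1, at a mean of 13028 ± 595 (SD, n = 3) with DMSO and 6673 ± 473 with ARVs, and Myl1 and Myh1 had log2 fold changes of -1.28 and -1.58. Their part in the change of Cacna1s was not tested. In bulk libraries such as these, fewer cells of a type and less RNA per cell cannot be told apart.

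Cacna1b, the pore-forming subunit of the N-type channel known from nerve endings (ENSRNOG00000004560, chr3:1740024-1924827, minus strand), was scarce. It gave 113, 113 and 123 normalized counts with DMSO and 181, 164 and 189 with ARVs. Here DMSO replicate 2 lay with the other controls. Cacna1b had a log2 fold change of 0.61 (SE 0.13, adjusted p = 0.00293), and 0.59 (SE 0.16) without that library.

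Scn4b, a beta subunit that speeds the reopening of sodium channels during repolarization, known best from neurons (ENSRNOG00000026679, chr8:49441106-49456279, plus strand), gave 275, 171 and 291 normalized counts with DMSO. With ARVs its normalized counts were 114, 111 and 109, close together and all below the controls. The mean fell by 54.7%, with a log2 fold change of -1.14 (SE 0.20, adjusted p = 0.0016), and -1.35 (SE 0.14) without DMSO replicate 2.

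Of the 4 pore-type potassium channel genes, Kcnh2, Kcna6 and Kcnj2 were lower and Kcng2 was higher. Kcnh2, which carries the rapid delayed rectifier current that ends the plateau (ENSRNOG00000009872, chr4:7355574-7387253, plus strand), gave 2352, 2366 and 2318 normalized counts with DMSO and 1978, 1954 and 2011 with ARVs. The fall of 15.6% was small, and the libraries within each group differed by still less. The log2 fold change of -0.24 (SE 0.04, adjusted p = 0.00137) was -0.15 (adjusted p = 0.00962) with TMM and -0.05 (adjusted p = 0.476) with median-ratio factors. Kcna6, a voltage-gated channel of the Shaker family (ENSRNOG00000052486, chr4:159253934-159287193, minus strand), gave 102, 73.3 and 85.1 normalized counts with DMSO and 41.3, 43.5 and 42.7 with ARVs. Its mean fell by 51.0%, with a log2 fold change of -1.03 (SE 0.20, adjusted p = 0.002).

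Kcng2, an electrically silent subunit that forms channels only together with Kcnb subunits, had the highest FPKM of the 23 listed channel genes (ENSRNOG00000053640, chr18:76809144-76878981, minus strand). It was the only listed potassium channel gene that was higher. Normalized counts of Kcng2 were 2451, 2755 and 2172 with DMSO and 3699, 3573 and 3673 with ARVs. The mean rose by 48.3%, with a log2 fold change of 0.57 (SE 0.08, adjusted p = 0.00055), and 0.66 (SE 0.06) without DMSO replicate 2.

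Kcnj2, the inward rectifier that holds the resting potential of ventricular cells (ENSRNOG00000004720, chr10:99437436-99439114, plus strand), was the only channel gene whose groups overlapped. Its normalized counts were 437, 238 and 439.7 with DMSO and 261, 228 and 249.7 with ARVs. DMSO replicate 2 lay within the treated libraries, and the other controls lay well above them. The log2 fold change was -0.59 (SE 0.22, adjusted p = 0.0255). The call was lost with TMM (adjusted p = 0.0536) and median-ratio factors (adjusted p = 0.0993), and without DMSO replicate 1 (0.101), DMSO replicate 3 (0.0828), ARVs replicate 1 (0.0543), ARVs replicate 2 (0.0807) or ARVs replicate 3 (0.0641). Without DMSO replicate 2 the log2 fold change was -0.83 (SE 0.10, adjusted p = 4.0e-06).

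The 4 auxiliary subunit genes of potassium channels fell. Kcne1, the single-span partner of Kcnq1 in the slow delayed rectifier (ENSRNOG00000001984, chr11:32498261-32508420, minus strand), had the largest fall of the channel genes. It gave 72.2, 89.7 and 79.8 normalized counts with DMSO and 37.2, 23.6 and 6.75 with ARVs. The controls were close together, and the treated libraries spread widely around 22.5 ± 15.2, the lowest of them resting on 6 raw counts. The mean fell by 71.6%, with a log2 fold change of -1.82 (SE 0.41, adjusted p = 0.00364) that lay between -2.35 and -1.41 when any library was left out. The upstream sequence of Kcne1 shown above was the only one of the 15 with a GATA site. Kcne4, of the same family and known to inhibit Kcnq1 channels in transfected cells (ENSRNOG00000048478, chr9:84689150-84690338, plus strand), gave 264, 197 and 208 normalized counts with DMSO and 162, 137 and 155 with ARVs. Its log2 fold change was -0.56 (SE 0.15, adjusted p = 0.00665).

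Kcnmb1 encodes the beta subunit of the large-conductance calcium-activated potassium channel and is typical of smooth muscle (ENSRNOG00000005465, chr10:18906010-18919639, plus strand). Its normalized counts were 129, 133 and 123 with DMSO and 76.4, 56.2 and 56.2 with ARVs, with a log2 fold change of -1.03 (SE 0.18, adjusted p = 0.00134). Listed smooth muscle and pericyte markers fell beside it: 8 of 13 were in the table, all 8 lower (7 with TMM), against 60.1% of all genes tested. Their median log2 fold change was -0.54. Their summed normalized counts were 109660.0 to 132877 with DMSO and 77804 to 89713 with ARVs. Those with the smallest adjusted p were Mylk, Tagln, Cnn1 and Myh11, at log2 fold changes of -0.76, -0.58, -0.51 and -1.04. Their part in the change of Kcnmb1 was not tested. Kcnab3, a cytosolic beta subunit of Shaker channels (ENSRNOG00000008480, chr10:55927223-55933653, plus strand), was the scarcest of the 23 listed channel genes by count and the only one with a mean under 50. Its normalized counts lay between 39.6 and 57.8 with DMSO and between 20.8 and 26.8 with ARVs, and the log2 fold change was -1.12 (SE 0.25, adjusted p = 0.0036).

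The connexin genes, which form gap junction channels between cells, also moved in opposite directions. Gja5, the connexin of atrial muscle and the His-Purkinje system (ENSRNOG00000017484, chr2:199162745-199184939, plus strand), gave 281, 399 and 250.05 normalized counts with DMSO and 423, 477 and 425 with ARVs. DMSO replicate 2 lay near the treated libraries, without overlap. The mean rose by 42.4%, with a log2 fold change of 0.51 (SE 0.16, adjusted p = 0.0144), and 0.73 (SE 0.11) without DMSO replicate 2. The call was lost without DMSO replicate 1 (adjusted p = 0.0551) or ARVs replicate 2 (adjusted p = 0.0554). Gjc1, the connexin of nodal tissue and the early heart (ENSRNOG00000048838, chr10:90781402-90912287, minus strand), gave 736, 568 and 641 normalized counts with DMSO and 477, 466 and 541 with ARVs. Its log2 fold change was -0.39 (SE 0.11, adjusted p = 0.0071). With TMM the groups overlapped, and with median-ratio factors the adjusted p was 0.102.

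Piezo1 and Lrrc8b encode channels that respond to mechanical load and to cell swelling. Piezo1, a cation channel opened by membrane stretch (ENSRNOG00000056786, chr19:55305496-55367353, minus strand), gave 1927, 2004 and 1917 normalized counts with DMSO and 2559.9, 2752 and 2682 with ARVs. Both groups were tight, and the mean rose by 36.7%, with a log2 fold change of 0.45 (SE 0.05, adjusted p = 0.000147), the smallest p of the channel genes. Lrrc8b, a subunit of the volume-regulated anion channel (ENSRNOG00000002129, chr14:5418741-5428757, minus strand), gave 626, 549.9 and 682 normalized counts with DMSO and 382, 329.9 and 362 with ARVs. The mean fell by 42.2%, with a log2 fold change of -0.79 (SE 0.10, adjusted p = 0.00036). Without DMSO replicate 2 the log2 fold changes of Piezo1 and Lrrc8b were 0.47 and -0.87.

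The largest rise of the channel genes was that of a transient receptor potential channel. Trpm8, the cold and menthol receptor of sensory neurons (ENSRNOG00000019035, chr9:95398237-95482890, plus strand), gave 28.0, 69.5 and 20.5 normalized counts with DMSO and 102, 133 and 139 with ARVs. Its raw counts were 31, 72 and 19 with DMSO, so the control mean of 39.3 ± 26.4 rested on few reads. The groups did not overlap, and DMSO replicate 2 was the highest control. The mean rose 3.15-fold, with a log2 fold change of 1.66 (SE 0.38, adjusted p = 0.00399), and 2.35 (SE 0.26) without DMSO replicate 2. At an FPKM of 0.482 ± 0.330 it was the scarcest channel gene per length with DMSO, and at 1.56 ± 0.250 it ranked 19 of 23 with ARVs. Neuron and Schwann cell markers were represented by Ncam1 alone of 15, at a log2 fold change of 0.31, and their part in the change of Trpm8 was not tested.

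P2rx4 and Gria3 are gated by ligands. P2rx4, a cation channel opened by extracellular ATP (ENSRNOG00000001300, chr12:39308025-39325673, minus strand), gave 313, 317 and 306 normalized counts with DMSO and 393, 394 and 426 with ARVs. The 3 controls lay within 312 ± 5.70 and every treated library was above them. The mean rose by 29.5%, with a log2 fold change of 0.37 (SE 0.08, adjusted p = 0.00341). P2rx4 is also known from macrophages, and macrophage and leukocyte markers moved with it. The table held 5 of 17 such markers, 4 higher and 1 lower, where 39.9% of all genes tested were higher. Their median log2 fold change was 0.49, and summed normalized counts were 1049 to 1140.2 with DMSO and 1414 to 1498 with ARVs. Adgre1, Fcer1g and Lyz2 were among those higher, at log2 fold changes of 1.22, 0.57 and 0.34, and Cd74, of antigen presentation, was lower at -1.68. Their part in the rise of P2rx4 was not tested. Gria3, a subunit of AMPA-type glutamate receptors (ENSRNOG00000007682, chrX:127562660-127829753, plus strand), gave 1748, 1740.3 and 1661 normalized counts with DMSO and 1508, 1489 and 1486 with ARVs. Its fall of 13% was the smallest change of the channel genes, with a log2 fold change of -0.20 (SE 0.05, adjusted p = 0.00407). It was -0.10 (adjusted p = 0.0594) with TMM and -0.00 (adjusted p = 0.983) with median-ratio factors.

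Per length, Kcng2 and Cacna1g were the most abundant of the 23 listed channel genes in both groups. Of 37 channels of the cardiac action potential, 27 were not in the table and have no level here. Kcng2 had a mean FPKM of 68.0 ± 8.65 with DMSO and 103 ± 0.978 with ARVs, followed by Cacna1g at 51.3 ± 8.98 and 78.9 ± 0.919. Their libraries overlapped with DMSO, where the lowest Kcng2 library was at 60.0 and the highest Cacna1g library at 61.4, and were apart with ARVs. Kcnh2 ranked 3 with DMSO at 35.2 ± 0.691 and 4 with ARVs at 30.3 ± 0.161. Lower with DMSO came Gjc1, Hcn2, Kcne4 and Gria3, at means between 17.3 and 19.7, with libraries that overlapped. With ARVs Piezo1 ranked 5, up from 9, and Hcn2 ranked 10, down from 6. Hcn4 went from 18 to 14, at an FPKM of 3.43 ± 0.728 and 6.43 ± 0.374, and Kcne1 from 13 to 17, at 7.0 ± 0.858 and 1.99 ± 1.35. At the low end with DMSO, Cacna1b at 0.770 ± 0.0396, Kcna6 at 0.657 ± 0.10 and Trpm8 overlapped in their libraries. With ARVs, Cacna1b at 1.2 ± 0.072, Kcnab3 at 0.564 ± 0.0793 and Kcna6 at 0.329 ± 0.0114 were apart from each other.

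**Figure D3:**
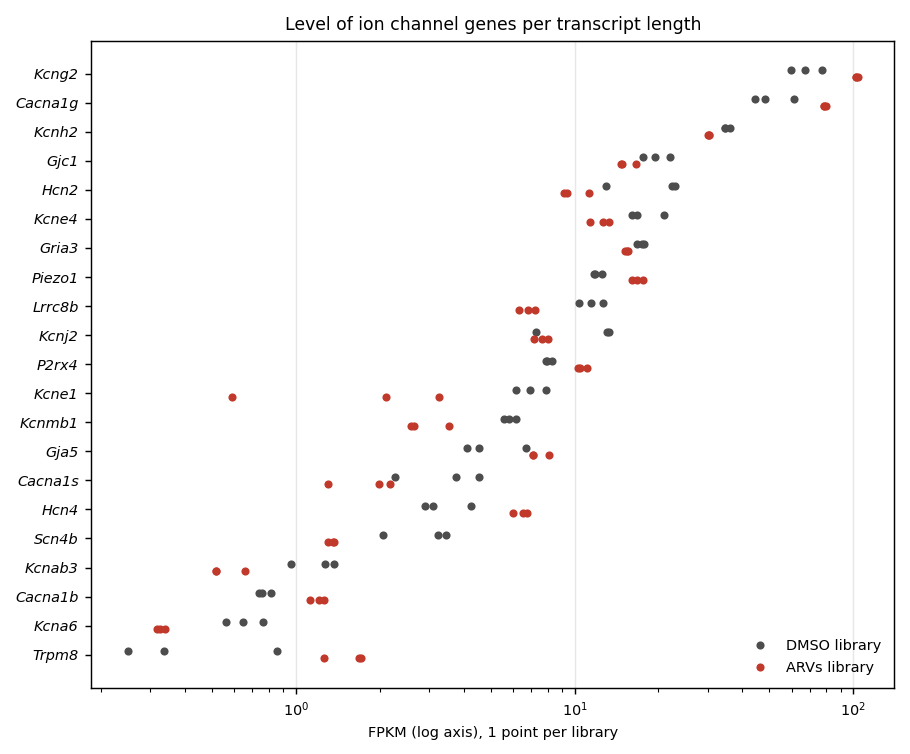
FPKM (log axis) of 21 ion channel genes, 1 point per library, DMSO in grey and ARVs in red, ordered by the mean with DMSO. Kcng2 is at the top at 68.0 with DMSO and 103 with ARVs, and Trpm8 at the bottom at 0.482 and 1.56.

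The ratio of a pair of genes within a library does not depend on how libraries are scaled. It was computed for 3 pairs of related channel genes, chosen after their values were seen because their members moved in opposite directions, so the ratios are a description and were not tested. With 3 libraries against 3, an exact permutation test could not give a p below 0.1. The FPKM ratio of Hcn4 to Hcn2 was 0.130, 0.330 and 0.136 in DMSO replicates 1, 2 and 3 and 0.695, 0.733 and 0.533 with ARVs, so that mean ratios were 0.199 ± 0.113 and 0.654 ± 0.106. Hcn2 thus exceeded Hcn4 in FPKM in every library, by less with ARVs. That of Cacna1g to Cacna1s was 12.9, 26.9 and 9.77 with DMSO and 36.0, 59.8 and 40.3 with ARVs, a 2.74-fold difference of the means. For the connexins Gja5 and Gjc1 it was 0.207, 0.381 and 0.211 with DMSO and 0.480, 0.554 and 0.425 with ARVs, a 1.83-fold difference. In all 3 pairs the groups did not overlap, and DMSO replicate 2 was the control nearest to the libraries with ARVs. Both outcomes were fixed by the choice of pairs. Each gene of a pair had groups apart in FPKM, in opposite directions, with DMSO replicate 2 as its nearest control. The ratios therefore add no evidence to the values of the single genes.

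**Figure D4:**
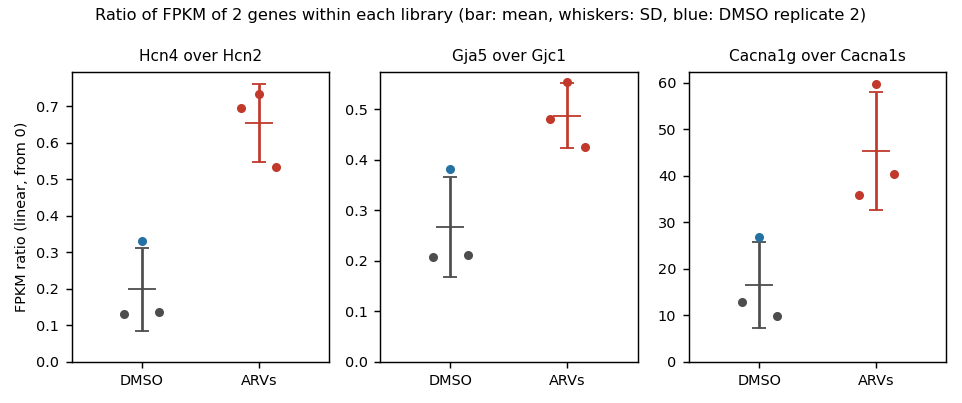
Ratio of the FPKM of 2 related channel genes within each library (linear axes from 0), for 3 pairs, with DMSO replicate 2 in blue, bars at the mean and whiskers of 1 SD. Groups do not overlap in any pair, as for Hcn4 over Hcn2 with means of 0.199 and 0.654, which the choice of pairs had fixed.

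DMSO replicate 2 lay between the other controls and the libraries with ARVs for many channel genes. Its level took part in the authors' comparison that chose the listed genes, so its position is a description. It was placed on a scale of log2(normalized count + 1) where 0% is the mean of DMSO replicates 1 and 3 and 100% the mean of the libraries with ARVs. The median position was 38.7% for channel genes and 17.1% for all listed genes. A position over 25% was found for 15 of the 23, or 65.2%, against 43.0% of all listed genes. It was 106% for Kcnj2, 80.5% for Gja5, 71.0% for Cacna1s, 68.2% for Hcn2 and 64.5% for Trpm8. For 6 genes the library lay on the side of the other controls' mean that is away from ARVs, among them Gria3 at -16.0%, Kcne1 at -12.0%, Cacna1b at -10.3%, Kcnh2 at -8.07% and Kcnmb1 at -7.92%. The SD of log2 values was larger among DMSO libraries than among ARVs libraries for 17 channel genes, or 73.9%, against 64.9% of all listed genes. Its median over channel genes was 0.223 with DMSO and 0.0973 with ARVs, against 0.0998 and 0.0708 over all listed genes. Without DMSO replicate 2 all 23 genes passed the test, and the absolute log2 fold change was larger for 17 of them. A position over 0% makes the change larger once that library is left out, so this restates the positions. Positions over 0% were found for 73.9% of channel genes and 65.1% of all listed genes. The median absolute log2 fold change went from 0.59 to 0.73, while that of all tested genes went from 0.39 to 0.42.

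**Figure D5:**
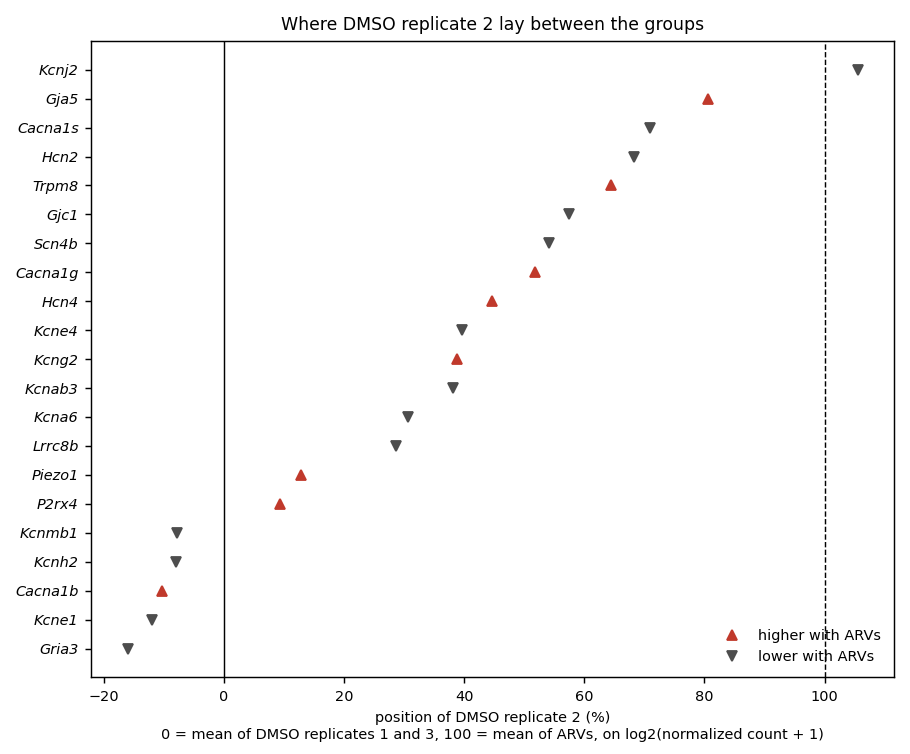
Position of DMSO replicate 2 (%) between the mean of the other controls (0, solid line) and the mean of the ARVs libraries (100, dashed line) for 21 ion channel genes, on the scale of log2(normalized count + 1). Triangles pointing up are genes higher with ARVs and triangles pointing down genes lower with ARVs, and positions run from -16.0% for Gria3 to 106% for Kcnj2.

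Genes that work with these channels, or mark other cells of the culture, were read from gene lists. Among all genes tested 39.9% were higher and 60.1% lower, the shares that stand beside the counts of every list. Of 37 channels of the cardiac action potential, 10 were in the table and all 10 are among the 23, 4 higher and 6 lower. Of 23 ion pumps and exchangers, which restore the gradients that channels spend, 9 were in the table, 1 higher and 8 lower (1 and 7 with TMM), with a median log2 fold change of -0.48 against -0.25 for all listed genes. The sodium pump subunit Atp1b1 fell at a log2 fold change of -0.38 (SE 0.06), and the plasma membrane calcium pump Atp2b2 at -2.37 (SE 0.23). Of 57 proteins that anchor, regulate or trigger channels, 10 were in the table, 2 higher and 8 lower (2 and 5 with TMM). Casq1, a calcium store protein, fell at -0.97 (SE 0.06), Ank3, the ankyrin that anchors sodium channels, at -0.36, and Pln, the inhibitor of the calcium pump of the store, rose at 0.38.

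Of 22 genes on a list of transcription regulators of the conduction system, 4 were in the table. Being on the list does not make a gene particular to that system, and the paper describes HOPX as a cardiac co-transcription factor. Nkx2-5, Hopx and Irx3 were higher, at log2 fold changes of 0.40, 0.57 and 0.46, and Mef2c was lower at -0.67. Of 21 other junction genes, 4 were listed and all 4 were higher, the desmosomal Dsg2, Dsp and Jup at 0.43, 0.25 and 0.22 and the cadherin Cdh2 at 0.16. The table held 7 of 15 fibroblast markers, 3 higher and 4 lower, and 2 of 13 endothelial markers, 1 in each direction. With TMM, 5 cardiomyocyte markers were higher and 3 lower. Of 13 proliferation markers 11 were listed, all 11 lower, against 60.1% of all genes tested. Their summed normalized counts were 17836 to 18236 with DMSO and 9101 to 9674 with ARVs.

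The 23 genes lie on 14 chromosomes, 5 of them on chromosome 10 and 3 on chromosome 8. The closest pair on a chromosome starts 8.65 Mb apart, and no channel gene overlaps another listed gene.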

How the data were processed

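Per the labels and the study's methods, total RNA was sequenced from NRVCs with TruSeq libraries. Reads were mapped by the authors with HISAT2 (Rattus norvegicus release 97), and transcripts assembled with StringTie v1.3.3b. The HISAT2 version, the read counter and the use of strand are not given in the sources used here. Coordinates with gene IDs are those of the table for release 97. Counts are raw reads per gene as deposited. The normalized signal is the authors' count divided by 1 size factor per library, and the deposited FPKM is the count scaled to transcript length and library total. The authors' log2 fold changes and p-values, held in further columns, were not used.

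Counts were tested in R 4.3.3 with edgeR 4.0.16 (glmQLFit, glmQLFTest), 3 ARVs against 3 DMSO libraries without covariates, after filterByExpr had removed 5 genes, at an adjusted p of 0.05. Library sizes followed the authors' size factors. The test was tested on simulated data in which most genes were left unchanged. The listed genes had all been called before, so the simulation gives no error rate for them. Alternatives were TMM, median-ratio factors, library totals from FPKM, DESeq2 1.42.0, no filter on low counts, a minimum of 10 counts per library, a threshold of 0.01, the replicate number as a block, each library left out, and members with a mean of at least 50. Members and lists were chosen with earlier results of these data known. Members with a mean of at least 50 normalized counts and no overlap, and 7 marker genes, are given per library, with Kcnab3 by its range. Some genes are not reported here. Up to 4 genes per list with the smallest adjusted p are named.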

Additional observations from a re-analysis of the deposited data

How the results depend on the processing

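With DESeq2, library totals from FPKM, no filter on low counts and without DMSO replicate 2, all 23 ion channel genes kept their direction and their call, and no gene changed direction under any alternative run. With median-ratio factors, 9 channel genes were lower in place of 14, and 536 of all listed genes in place of 1052, since these factors shift log2 fold changes upward by a median of 0.20. TMM shifted them by 0.095 and left 12 channel genes lower, with 20 rather than 22 genes whose groups did not overlap. At an adjusted p of 0.01, Gja5 and Kcnj2 did not pass. With each library left out in turn, 8 to 9 channel genes were higher and 13 to 14 lower, and 672 to 701 and 985 to 1050 of all listed genes. Kcne1 had no value at 10 counts in every library. Over all listed genes, deviations of same-numbered libraries had correlations of -0.0065, 0.24 and 0.067 for replicates 1, 2 and 3. The labels do not say whether replicate numbers pair the libraries. The replicate block left 9 higher and 14 lower. It lowered the SE of Cacna1s from 0.27 to 0.12 and of Kcnj2 from 0.22 to 0.15. For other genes the SE rose, as for Kcna6 from 0.20 to 0.22 and Cacna1b from 0.13 to 0.14. Kcnab3, Kcne1 and Kcna6 rest on the fewest reads of the channel genes, which limits their precision, and genes that are not listed have no value here.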
